A study of Mus musculus with 48 samples.

Results

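The 10 genes described here are the Scm genes Scml2 and Scmh1 and 8 genes of the Polycomb complex that their proteins join, PRC1, namely Phc1, Phc2, Phc3, Cbx2, Cbx7, Bmi1, Rnf2 and Ring1. They are 10 of the 20171 genes in the count table, and each was found on 1 row by its symbol. Scml2 and Scmh1 were chosen because these data had shown their mRNA to be recovered with Tnrc6a and to change in opposite directions in lysates of cells labelled Upf1 knockout. Every comparison made here uses tagged or untagged libraries on which that choice rested, so the values of Scml2 and Scmh1 are given throughout as a description, with no test. The 8 partners were chosen by name, with earlier results of these data known. All 10 genes passed the filter on low counts in every comparison, and their lowest count in a library was 32, for Bmi1.

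Polycomb repressive complex 1 (PRC1) adds ubiquitin to histone H2A and compacts chromatin at silenced developmental genes. Its catalytic core pairs a RING protein (Ring1 or Rnf2, also called Ring1b) with a PCGF protein such as Bmi1. In its canonical form it also holds a chromodomain protein such as Cbx2 or Cbx7, which reads the histone H3 methylation made by PRC2, and a polyhomeotic protein (Phc1, Phc2 or Phc3), whose SAM domain forms chains. Scm proteins such as Scml2 and Scmh1 carry MBT repeats and a SAM domain that binds the SAM domain of polyhomeotic. In mouse embryonic stem cells, Cbx7 and Rnf2 are known as the main proteins of their kind in PRC1, and Cbx2 is known to rise on differentiation. The RNAs measured here are the mRNAs of these proteins. Tnrc6a, a GW182 protein, links Argonaute proteins such as Ago2 to the enzymes that shorten and silence mRNAs, and Upf1 is a helicase of nonsense-mediated decay.

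RNA was sequenced from lysates (inputs) of mouse embryonic stem cells and from what beads with an HA antibody recovered from them (immunoprecipitates, IPs). All genotype labels carry GFP_5xT71BS. The untagged label spells this out as 129S6/SvEvTac mouse embryonic stem cells with the reporter yGlob [GFP_5xT71BS] and a stable FLAG-Cas9::T2A::Blasticidin transgene. The other labels do not repeat these details, which were taken to hold for all cells. The 4 genotypes were untagged cells, HA-AVI-Tnrc6a cells (written HA-Tnrc6a), HA-AVI-Tnrc6a Ago2-/- cells and HA-AVI-Tnrc6a Upf1-/- cells. Each genotype gave 3 input and 3 IP libraries in each of 2 experiments, called experiment 3 and experiment 4, which makes 16 groups and 48 libraries. Which columns of the table belong to which experiment was inferred from their numbers. The number of clones behind each line is not stated, and nothing says that the 3 libraries of a group came from separate cultures, so p-values measure the spread between these libraries, which may be technical.

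Library totals were 11471544 to 19595405 counts in experiment 3 and 25724085 to 73845953 in experiment 4. Levels are in CPM, each library's counts put on a shared scale with TMM factors. Between input groups, fold is a ratio of mean CPM, and for IP over input it is a ratio of geometric means. For recovery over untagged cells, fold is the fitted log2 difference taken out of log2. Tnrc6a mRNA, the mRNA of the tagged protein, was recovered at 7686 to 58807 CPM in tagged IPs and 56.6 to 105 CPM in untagged IPs. Ago2 mRNA was 92.8 to 136 CPM in Ago2 knockout inputs and 161 CPM or more in every other input. Upf1 mRNA was not lower in inputs labelled Upf1 knockout, at 122 to 142 CPM against 74.4 to 99.6 CPM in HA-Tnrc6a inputs, and the gene overlaps Gdf1 in the annotation. The label was therefore not checked by its mRNA, and the cells are called labelled Upf1 knockout. The 10 markers of embryonic stem cells summed to 6891 to 8633 CPM in all inputs. Those of primitive endoderm (6 of 6 listed) summed to 35.3 to 39.1 CPM in HA-Tnrc6a, 7.45 to 9.41 in Ago2 knockout, 12.7 to 60.2 in labelled Upf1 knockout and 12.7 to 41.3 in untagged inputs, with Foxa2 at 0.00 in at least 1. Neural markers (3 of 4) summed to 76.8 to 85.1, 102 to 110, 47.5 to 64.4 and 82.6 to 103 CPM in the same order, and fibroblast and mesoderm markers to at most 57.5 and 17.1 CPM. The neural sum was mainly Tubb3 (34.5 to 101 CPM), with Sox1 at 5.02 to 24.3 and Pax6 at 0.109 to 1.55. Among fibroblast markers, Thy1 had 18.6 to 33.5 CPM, and Col1a2 and Acta2 at most 0.707 and 0.835. These sums do not show cell states by themselves, and their part in the input differences given for the Polycomb genes was not tested.

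Per kilobase of counted gene length, which allows genes to be compared, Phc1 was the most abundant of the 10 mRNAs in the 24 inputs, with a median of 98.1 CPM per kilobase and a lowest value of 86.4. Rnf2 (34.7 to 49.1) and Cbx7 (33.5 to 45.8) followed with overlapping ranges. Cbx2 (7.47 to 8.93) lay above Phc2 (4.35 to 6.41) in every input. The other 5 had medians of 2.94 (Ring1), 1.97 (Scmh1), 1.26 (Phc3), 1.22 (Bmi1) and 1.09 (Scml2), with ranges that overlapped between neighbours. The lysates thus held much mRNA of 1 polyhomeotic, 1 chromodomain and 1 RING gene and little of the Scm genes. Scml2 had the widest relative range, from 0.385 to 3.13 CPM per kilobase.

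Scml2 (ENSMUSG00000000037, chrX:161082525-161258218 in GRCm38, 6397 bases counted) was present at 20.0 CPM or less in lysates and was higher on the beads only where Tnrc6a carried the tag. Its untagged inputs had 5.54, 6.63 and 7.19 CPM in experiment 3 and 5.53, 6.46 and 6.16 CPM in experiment 4. The untagged IPs had 4.30, 4.91 and 5.02 CPM and then 6.23, 6.05 and 6.07 CPM. As a share of the library, Scml2 in untagged IPs thus lay below the inputs in experiment 3 and overlapped them in experiment 4. CPM does not give the amount of RNA on the beads. HA-Tnrc6a inputs had 17.2, 17.2 and 20.0 CPM in experiment 3 and 9.63, 9.78 and 9.77 CPM in experiment 4. The matching IPs had 136, 133 and 118 CPM and 88.7, 73.5 and 68.0 CPM. All 6 tagged IPs lay above all 12 untagged libraries and above their own inputs.

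In Ago2 knockout cells, Scml2 inputs had 6.74, 7.71 and 7.55 CPM in experiment 3 and 11.6, 12.1 and 10.9 CPM in experiment 4. The IPs had 50.4, 45.3 and 55.2 CPM and 78.6, 75.5 and 70.6 CPM. In cells labelled Upf1 knockout, inputs had 2.46, 3.15 and 3.51 CPM and 2.98, 3.50 and 2.87 CPM, the lowest of the series. Their IPs had 19.9, 20.2 and 26.2 CPM and 33.0, 25.5 and 25.1 CPM, again above every untagged library.

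The IP level of Scml2 moved with its input level. In the 6 groups of tagged cells, mean inputs ran from 3.04 to 18.2 CPM, whereas the IP-over-input ratio stayed between 6.49-fold and 8.91-fold. It was 7.11-fold and 7.84-fold in HA-Tnrc6a cells (experiments 3 and 4), 6.85-fold and 6.49-fold in Ago2 knockout cells, and 7.28-fold and 8.91-fold in labelled Upf1 knockout cells. The untagged ratios were 0.738-fold and 1.01-fold. Enrichment, the log2 IP-over-input ratio less that of untagged cells averaged over both experiments, was 3.13 ± 0.12 (SE) in HA-Tnrc6a, 2.97 ± 0.11 in Ago2 knockout and 3.31 ± 0.15 in labelled Upf1 knockout cells. These 3 values share the untagged libraries. Among the 19993 genes tested, the Scml2 enrichment in HA-Tnrc6a cells lay at percentile 98.0.

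**Figure D1:**
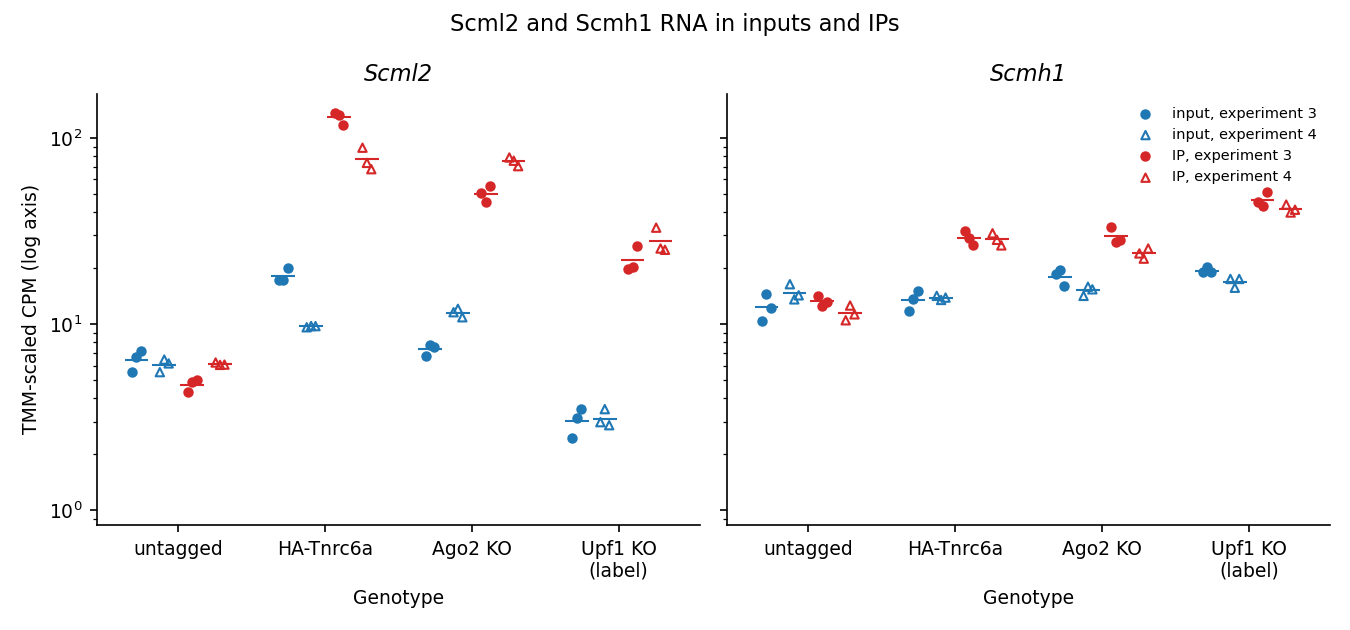
TMM-scaled CPM (log axis) of Scml2 (left) and Scmh1 (right) by genotype; blue symbols are inputs, red symbols are IPs, circles are experiment 3, triangles are experiment 4, each symbol is 1 library and each line a group mean. Scml2 inputs labelled Upf1 knockout lie at 3.51 CPM or less, below all others, while Scmh1 IPs of the same cells lie at 39.8 CPM or more, above all others.

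Scmh1 (ENSMUSG00000000085, chr4:120405150-120530200, 7731 bases counted), the other Scm gene, was recovered less strongly and varied less between lysates. Untagged inputs had 10.4, 14.5 and 12.2 CPM and then 16.4, 13.6 and 14.3 CPM, and untagged IPs 14.1, 12.6 and 13.1 CPM and then 10.5, 12.6 and 11.3 CPM. HA-Tnrc6a inputs had 11.8, 13.7 and 15.1 CPM and 14.2, 13.5 and 13.9 CPM. Their IPs had 31.6, 29.0 and 26.6 CPM and 30.8, 28.4 and 26.5 CPM. All 6 IPs exceeded all 6 inputs, by 2.15-fold and 2.06-fold on average, and exceeded all untagged libraries.

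Ago2 knockout cells had Scmh1 inputs of 18.5, 19.5 and 16.1 CPM and 14.2, 15.9 and 15.4 CPM, and IPs of 33.4, 27.5 and 28.5 CPM and 24, 22.5 and 25.5 CPM. Their ratio was lower, at 1.65-fold and 1.58-fold. Cells labelled Upf1 knockout had inputs of 19.0, 20.2 and 19.1 CPM and 17.5, 15.7 and 17.5 CPM, and IPs of 45.4, 43.3 and 51.0 CPM and 43.9, 39.8 and 41.2 CPM. Their ratio, 2.39-fold and 2.46-fold, was the highest of the 4 genotypes in both experiments. Enrichment of Scmh1 over untagged cells was 1.22 ± 0.11 in HA-Tnrc6a, 0.84 ± 0.11 in Ago2 knockout and 1.49 ± 0.10 in labelled Upf1 knockout cells (log2 ± SE). The HA-Tnrc6a value lay at percentile 85.8 of all genes tested.

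The lysates labelled Upf1 knockout held less Scml2 and more Scmh1 than HA-Tnrc6a lysates, which is what the genes were chosen for. For Scml2 the log2 difference was -2.12 ± 0.088 (SE), with -2.60 in experiment 3 and -1.64 in experiment 4, or mean levels 5.97-fold and 3.12-fold lower. Against untagged lysates, which carry no tag, the same Scml2 levels were 2.12-fold and 1.94-fold lower, and the libraries did not overlap in either experiment. For Scmh1 the difference against HA-Tnrc6a was 0.40 ± 0.060, with 0.51 and 0.30, and against untagged lysates the mean was 1.57-fold and 1.15-fold higher. In experiment 4 the Scmh1 inputs of these 2 lines overlapped. In such bulk lysates, fewer cells that express a gene and less RNA per cell cannot be told apart. Scml2 lies on the X chromosome, where 670 genes tested had a median of -0.14 in this comparison, beside -0.02 for all genes.

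HA-Tnrc6a lysates, the reference in that comparison, had more Scml2 than untagged lysates. Untagged inputs had less Scml2 than HA-Tnrc6a inputs by 1.09 ± 0.078 (SE) on the log2 scale. All 6 untagged inputs lay below all 6 HA-Tnrc6a inputs. The gap was wider in experiment 3 (-1.49) than in experiment 4 (-0.68), a difference of 0.81 ± 0.16. Scmh1 was at -0.02 ± 0.077 in the same comparison. These HA-Tnrc6a inputs are also those against which the low level in cells labelled Upf1 knockout was seen. In experiment 3, HA-Tnrc6a input replicate 3 differed from replicates 1 and 2 across genes by a chi-square per degree of freedom of 34.29 and 28.91. Replicates 1 and 2 differed by 2.662. Leaving out each library in turn kept the Scml2 difference of untagged from HA-Tnrc6a inputs between -1.12 and -1.04. X-linked genes had a median of -0.04.

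Among the partners, the comparison of HA-Tnrc6a with untagged cells asked which mRNAs come down with Tnrc6a beyond bead background. Phc3, Cbx2 and Phc2 were recovered several-fold, Cbx7 and Rnf2 by about 1.56-fold each, Ring1 was depleted, and Phc1 and Bmi1 did not pass the test. That is 6 of 8 partners past a Benjamini-Hochberg adjusted p of 0.05 in edgeR's quasi-likelihood test, close to the 62.0% of all genes that passed. By direction, 5 were higher, beside 29.8% of all genes, and 1 was lower, beside 32.2%. The median log2 enrichment of the 8 was 0.64, beside -0.10 for all genes. Scaling by library totals alone moved the median of all genes to -0.25.

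The polyhomeotic genes ran from the highest to nearly no recovery. Phc3 (ENSMUSG00000037652, chr3:30899295-30969479) had HA-Tnrc6a IPs of 764, 661 and 590 CPM in experiment 3 and 440, 410 and 396 CPM in experiment 4. Its inputs there had 18.0 to 22.5 CPM, and untagged IPs 11.3 to 25.8 CPM. Every tagged IP thus lay far above every input and every untagged IP. Phc3 enrichment was 4.71 ± 0.15 on the log2 scale, or 26.2-fold (edgeR adjusted p = 2.65e-18), at percentile 99.7 of all genes. Phc2 (ENSMUSG00000028796, chr4:128654655-128752881) had 134, 123 and 120 CPM and 124, 95.1 and 102 CPM in the IPs, against inputs of 33.7 to 39.8 CPM and untagged IPs of 24.8 to 33.3 CPM. Its enrichment was 1.96 ± 0.089, or 3.90-fold (edgeR adjusted p = 9.44e-20), with the same value in each experiment to 2 decimals. Phc1 (ENSMUSG00000040669, chr6:122317731-122340227), the most abundant of the 3, had IPs of 458 to 491 CPM and 552 to 581 CPM and inputs of 535 to 539 CPM and 548 to 567 CPM. Its enrichment was 0.03 ± 0.057 (edgeR adjusted p = 0.683, 95% interval -0.08 to 0.14), and -0.13 with library totals.

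Both chromodomain genes were recovered. Cbx2 (ENSMUSG00000025577, chr11:119023019-119031275) had HA-Tnrc6a IPs of 191, 163 and 156 CPM and 157, 124 and 124 CPM, against inputs of 32.5 to 36.9 CPM and untagged IPs of 28.9 to 34.0 CPM. The groups did not overlap, and the enrichment was 2.31 ± 0.092, or 4.95-fold (edgeR adjusted p = 2.78e-21). Cbx7 (ENSMUSG00000053411, chr15:79915804-79971143) had IPs of 511, 482 and 446 CPM and 466, 394 and 398 CPM, against inputs of 250 to 276 CPM. Untagged IPs reached 327 CPM, below the lowest tagged IP. Its enrichment of 0.64 ± 0.071 (edgeR adjusted p = 1.46e-09) was smaller than that of Cbx2, although its mRNA was more abundant in every lysate per kilobase. Cbx7 overlaps Apobec3 in the annotation, so its counts are uncertain. Cbx2 overlaps Gm35829 and Phc2 overlaps Gm33712, neither found by symbol in the count table, so the same caution holds for Cbx2 and Phc2.

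The catalytic core genes among the partners were recovered weakly or not at all. Rnf2 (ENSMUSG00000026484, chr1:151469398-151500991), which encodes the main E3 ligase subunit, had IPs of 230, 256 and 232 CPM and 323, 285 and 267 CPM, against inputs of 153 to 195 CPM and untagged IPs of 135 to 213 CPM. Its enrichment was 0.64 ± 0.072 (edgeR adjusted p = 1.95e-09). Ring1 (ENSMUSG00000024325, chr17:34020792-34024680), its paralog, went the other way. The HA-Tnrc6a IPs of Ring1 had 8.47, 6.36 and 5.93 CPM and 7.94, 7.31 and 8.06 CPM, all below the 6 untagged IPs of 9.75 to 13.4 CPM. The Ring1 enrichment was -0.55 ± 0.12 (edgeR adjusted p = 0.000273). Bmi1 (ENSMUSG00000026739, chr2:18677018-18686629), only 1 of several PCGF genes, had IPs of 5.95 to 7.77 CPM, which overlapped the untagged IPs of 3.07 to 7.97 CPM. Its enrichment was 0.07 ± 0.16 (edgeR adjusted p = 0.735), and -0.09 with library totals. With 32 to 531 counts per library, its 95% interval ran from -0.25 to 0.39.

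**Figure D2:**
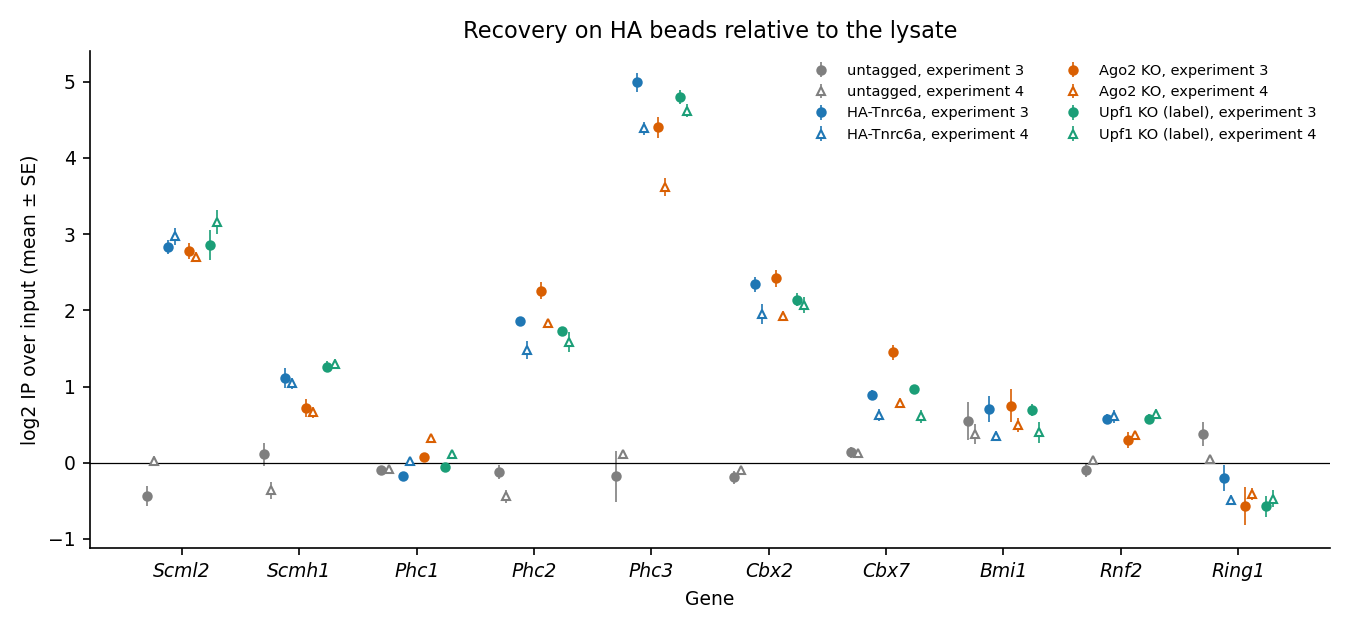
Log2 IP-over-input ratio (mean ± SE over 3 libraries per fraction) of the 10 genes, by genotype (grey untagged, blue HA-Tnrc6a, orange Ago2 knockout, green labelled Upf1 knockout) and experiment (circles 3, triangles 4). Phc3 reaches 4.99 in tagged cells, Scml2 at most 3.16, and Ring1 lies below 0 in all 6 tagged groups.

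Recovery over untagged cells was also present in both knockouts. In Ago2 knockout cells, 7 of 8 partners passed (64.7% of all genes did). Higher were Phc3 (4.04 ± 0.16, log2), Phc2 (2.34 ± 0.082), Cbx2 (2.33 ± 0.078), Cbx7 (1.00 ± 0.067), Rnf2 (0.38 ± 0.067) and Phc1 (0.31 ± 0.058), beside 31.5% of all genes, and lower was Ring1 (-0.72 ± 0.14), beside 33.2%. The enrichments of Cbx2 and Cbx7 were smaller in experiment 4 than in experiment 3, by 0.58 and 0.62 (edgeR adjusted p = 0.0180 and 0.00368), a difference that 6.15% of all genes showed. A fit with no term for the experiment left the Rnf2 and Ring1 values at 0.37 and -0.64 with edgeR adjusted p = 0.0806 and 0.0535.

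In cells labelled Upf1 knockout, again 7 of 8 partners passed (63.6% of all genes). Higher were Phc3 (4.79 ± 0.14), Cbx2 (2.33 ± 0.080), Phc2 (2.01 ± 0.085), Cbx7 (0.73 ± 0.065), Rnf2 (0.72 ± 0.066) and Phc1 (0.20 ± 0.058), beside 31.8% of all genes. Ring1 (-0.65 ± 0.13) was lower, also beside 31.8%. The Phc1 call was lost without any 1 of the 3 untagged IPs of experiment 3 (0.11 without replicate 1, 0.09 without replicate 2 and 0.09 without replicate 3), and its value was -0.06 with library totals. Bmi1 passed in neither knockout, at 0.16 ± 0.18 and 0.15 ± 0.16, the latter -0.11 with library totals.

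Whether recovery with Tnrc6a differed without Ago2 was tested against HA-Tnrc6a cells, whose libraries are shared with the other comparisons. Of the 8 partners, 5 passed, where 21.3% of all genes did. Phc3 and Rnf2 were recovered less (12.3% of all genes were lower), and Phc2, Cbx7 and Phc1 more (9.09% were higher). In Phc3, the Ago2 knockout IPs had 429, 361 and 452 CPM and 257, 229 and 278 CPM, below every HA-Tnrc6a IP of the same experiment at input levels of 17.2 to 22.2 CPM. The log2 difference in recovery was -0.68 ± 0.10 (edgeR adjusted p = 3.73e-06), with -0.60 and -0.77 in the 2 experiments. The Phc3 mRNA thus stayed 16.4-fold enriched over untagged cells in Ago2 knockout cells, beside 26.2-fold in HA-Tnrc6a cells. Rnf2 differed by -0.26 ± 0.072 (edgeR adjusted p = 0.00680), with -0.27 and -0.26. Without a test, Scmh1 stood at -0.38 ± 0.096, with -0.37 and -0.39, and Scml2 at -0.16 ± 0.093, with -0.04 and -0.29.

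The genes recovered more in Ago2 knockout cells were Phc2 at 0.37 ± 0.081, Cbx7 at 0.36 ± 0.075 and Phc1 at 0.27 ± 0.061 (edgeR adjusted p = 0.000844, 0.00053 and 0.00110). Phc2 IPs had 196, 165 and 189 CPM and 137, 130 and 145 CPM, above the HA-Tnrc6a IPs of the same experiment. Cbx7 IPs had 703, 565 and 642 CPM in experiment 3, above all HA-Tnrc6a IPs, and 395, 381 and 431 CPM in experiment 4, which overlapped them. The difference for Cbx7 was 0.56 in experiment 3 and 0.15 in experiment 4. Phc1 IPs had 752, 745 and 751 CPM in experiment 4, above the 552 to 581 CPM of HA-Tnrc6a. The 3 partners that did not pass were Cbx2 at 0.02, Bmi1 at 0.09 and Ring1 at -0.18. In a fit with no term for the experiment, none of the 8 passed by edgeR, with 4 at an unadjusted p under 0.05, while DESeq2 with that term gave 5.

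In cells labelled Upf1 knockout, recovery of none of the 8 partners differed from that in HA-Tnrc6a cells past the threshold, where 4.49% of all genes passed by edgeR (2.92% higher and 1.57% lower). At an unadjusted p under 0.05 there was 1, Phc1, which DESeq2 also called. Scmh1, with no test, stood at 0.26 ± 0.085, with 0.25 and 0.28 in the 2 experiments. Scml2, likewise, stood at 0.17 ± 0.12, with 0.12 and 0.21. Its input in these cells was at most 3.51 CPM, or 52 to 121 counts, which limits how small a difference could be seen. Phc1 was at 0.16, Phc2 at 0.04, Phc3 at 0.07, Cbx2 at 0.02, Cbx7 at 0.08, Bmi1 at 0.07, Rnf2 at 0.07 and Ring1 at -0.12.

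**Figure D3:**
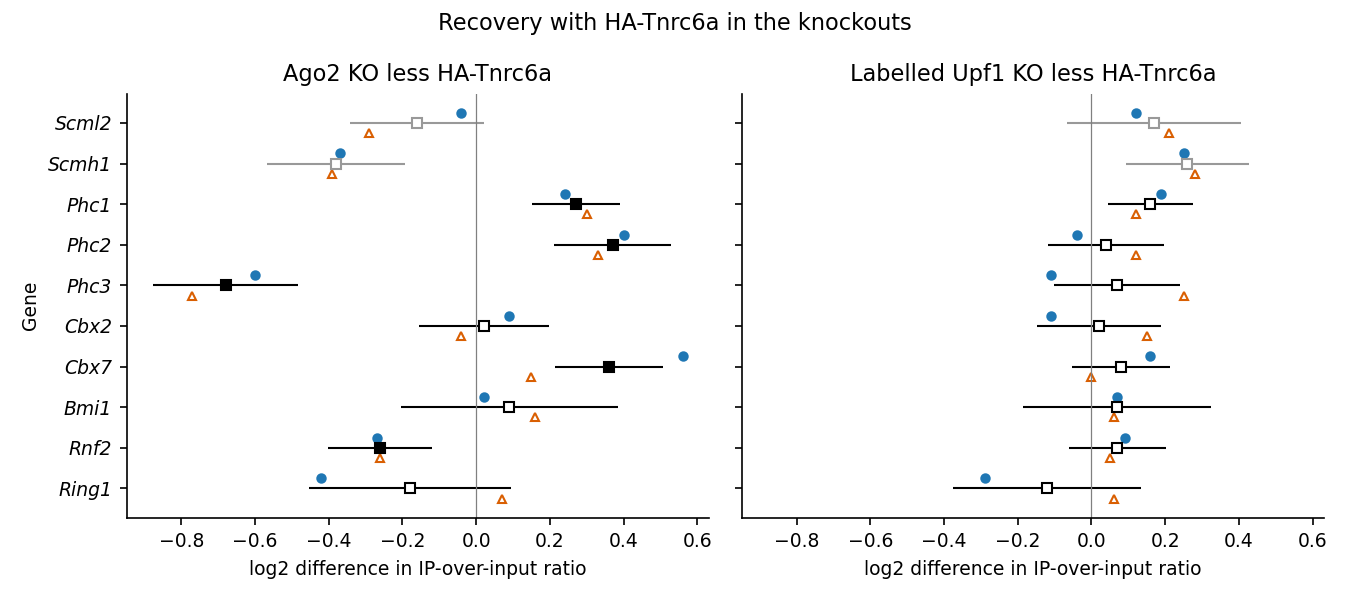
Log2 difference in the IP-over-input ratio from HA-Tnrc6a cells, for Ago2 knockout (left) and labelled Upf1 knockout cells (right); squares are averages over both experiments with 95% intervals, black for the 8 tested partners (filled where the edgeR adjusted p is under 0.05) and grey for the untested Scml2 and Scmh1, blue circles are experiment 3 and orange triangles experiment 4. Phc3 at -0.68 and Phc2 at 0.37 are the outermost averages on the left, and no square is filled on the right.

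Lysate levels were compared next. In inputs labelled Upf1 knockout, Phc3 at 0.38 ± 0.055, Bmi1 at 0.27 ± 0.10, Phc2 at 0.22 ± 0.040 and Cbx7 at 0.14 ± 0.022 were higher than in HA-Tnrc6a inputs (log2 ± SE). Phc1 at -0.19 ± 0.022, Ring1 at -0.19 ± 0.076 and Rnf2 at -0.09 ± 0.026 were lower, and Cbx2 at 0.02 ± 0.042 did not pass. That is 7 of 8 partners, where 58.6% of all genes passed, 29.5% higher and 29.0% lower. In levels, Phc3 inputs had 27.0, 25.9 and 31.8 CPM and 26.0, 22.8 and 26.4 CPM, against 20.3 to 22.5 CPM and 18.0 to 21.3 CPM in HA-Tnrc6a. They did not overlap in either experiment (edgeR adjusted p = 7.05e-08). Phc1 inputs had 491, 499 and 503 CPM and 467, 458 and 467 CPM, below all HA-Tnrc6a inputs (edgeR adjusted p = 2.66e-10). The Phc1 value was -0.12 in experiment 3 and -0.26 in experiment 4, a difference of -0.14 (edgeR adjusted p = 0.0288) of a kind that 11.6% of all genes showed.

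Bmi1 did not hold 1 direction in that comparison. Its inputs labelled Upf1 knockout had 3.98, 3.77 and 3.56 CPM in experiment 3, inside or below the HA-Tnrc6a values of 3.66, 5.03 and 4.27 CPM. In experiment 4 they had 8.73, 7.09 and 8.53 CPM, above 4.86, 4.83 and 5.00 CPM. The differences of -0.20 and 0.75 differed by 0.95 ± 0.20 (edgeR adjusted p = 0.000673). The Bmi1 call was lost without HA-Tnrc6a input replicate 1 of experiment 3 (0.22). The Ring1 call was lost in 6 of 12 fits that left out 1 library, with values from -0.22 to -0.16 over all 12. Those 6 left out HA-Tnrc6a input replicates 1 and 2 and labelled Upf1 knockout replicates 1 and 2 of experiment 3, and HA-Tnrc6a replicate 1 and labelled Upf1 knockout replicate 3 of experiment 4. Library totals also ended the calls of Ring1 (-0.15) and Rnf2 (-0.05), and a fit with no experiment term those of Bmi1 (0.38), Rnf2 (-0.09) and Ring1 (-0.18).

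In Ago2 knockout inputs, 2 of 8 partners passed, where 30.9% of all genes did. Both were lower, Bmi1 at -0.41 ± 0.12 and Cbx7 at -0.19 ± 0.026, beside 15.2% of all genes lower and 15.7% higher. Scml2, with no test, averaged -0.54 ± 0.071, which joins -1.31 ± 0.11 in experiment 3 with 0.24 ± 0.092 in experiment 4. In experiment 3 the Ago2 knockout inputs of Scml2 overlapped those of untagged cells, and in experiment 4 they lay above all untagged and HA-Tnrc6a inputs. Bmi1 was at -0.88 in experiment 3 and 0.06 in experiment 4, a difference of 0.93 ± 0.23 (edgeR adjusted p = 0.00805), and 5.94% of all genes differed so. Cbx7 was lower in both, at -0.15 and -0.22, with inputs of 217 to 241 CPM against 250 to 276 CPM in HA-Tnrc6a. Scmh1, also with no test, was at 0.41 and 0.13.

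The remaining partners stood at 0.05 (Phc1), 0.08 (Phc2), -0.02 (Phc3), 0.04 (Cbx2), -0.01 (Rnf2) and -0.11 (Ring1) in Ago2 knockout inputs. Without replicate 1 of the Ago2 knockout inputs of experiment 3 Phc1 passed (0.07), and without replicate 3 Phc2 did (0.13). With no experiment term only Cbx7 passed. In untagged inputs 1 of 8 partners passed, where 15.4% of all genes did (7.74% lower and 7.67% higher). This was Phc1, lower at -0.13 ± 0.029 (edgeR adjusted p = 0.00181), which did not pass with no experiment term. Without 1 untagged input of experiment 3, Cbx7 (0.08, replicate 1) or Ring1 (0.23, replicate 2) also passed. Bmi1 was at -0.62 in experiment 3 and 0.13 in experiment 4, a difference of 0.75 ± 0.22 (edgeR adjusted p = 0.0489), where 3.40% of all genes differed between experiments. In experiment 3, HA-Tnrc6a inputs stood above all untagged and Ago2 knockout inputs for Scml2 and Bmi1 alike.

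**Figure D4:**
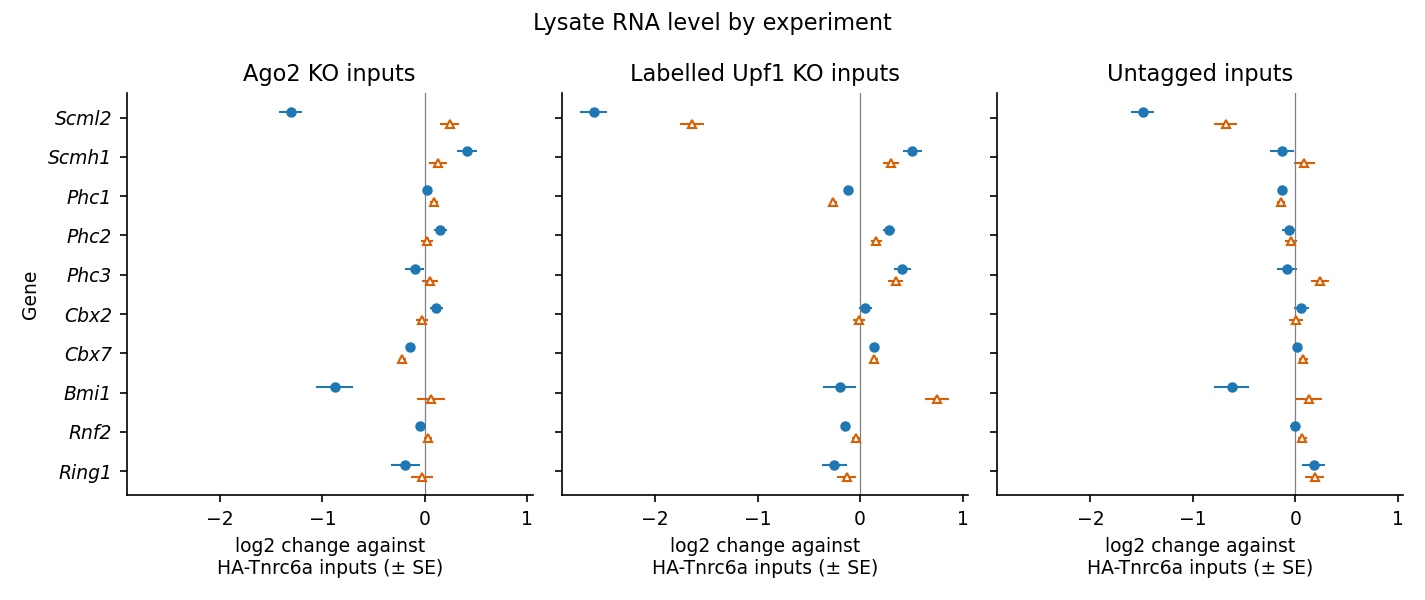
Log2 difference in input level from HA-Tnrc6a inputs (± SE) for Ago2 knockout, labelled Upf1 knockout and untagged cells; blue circles are experiment 3 and orange triangles experiment 4. Scml2 runs from -2.60 to 0.24 and Bmi1 from -0.88 to 0.75, while the Cbx2 and Rnf2 values lie at most 0.15 from 0.

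Other Polycomb genes from 4 lists gave a setting for these values. The lists held 22 other PRC1 genes, 12 PRC2 genes, 9 MBT and SAM domain relatives and 4 genes of the deubiquitinase PR-DUB. In HA-Tnrc6a cells over untagged cells, where 29.8% of all genes were higher and 32.2% lower (median -0.10), 15 of 22 other PRC1 genes were higher and 3 lower, with a median of 0.65. PRC2 genes had 6 of 12 higher and 3 lower (median 0.09), the relatives 3 of 9 higher and 4 lower (median -0.19), and PR-DUB 2 of 4 higher and 1 lower (median 0.23). The share of relatives that were higher was near that of all genes. Cbx6, a further Polycomb chromodomain gene, had an enrichment of 4.13 ± 0.091 (edgeR adjusted p = 6.89e-28), close to that of Phc3. Aebp2, a PRC2 cofactor, had 2.51 ± 0.087 (edgeR adjusted p = 5.02e-23). Lowest were Samd11, a SAM domain gene, at -0.84 and Eed, a PRC2 core subunit, at -0.53 (edgeR adjusted p = 2.71e-06 and 2.41e-09).

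Over untagged cells, the Ago2 knockout again had Cbx6 (4.36) and Aebp2 (2.33) highest and Mga (-0.86), the scaffold of a variant PRC1, and Samd11 (-0.83) lowest. The labelled Upf1 knockout had Cbx6 (4.18), Fbrs (2.69), an Auts2 relative in variant PRC1, Mga (-0.92) and Samd11 (-0.84). In experiments 3 and 4, Mga was at -1.42 and -0.29 in the Ago2 knockout. In the labelled Upf1 knockout it was at -1.40 and -0.44. Neither difference between experiments passed (edgeR adjusted p = 0.0513 and 0.0853). Of all 47 genes of the 4 lists, 26 were higher and 9 lower in the Ago2 knockout, beside 31.5% and 33.2% of all genes. In the labelled Upf1 knockout, 26 were higher and 13 lower, beside 31.8% of all genes in each direction.

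Against HA-Tnrc6a cells, recovery in the Ago2 knockout passed for 11 of 47 list genes higher and 8 lower (median 0.03), beside 9.09% and 12.3% of all genes (median -0.04). Named by size were Auts2 (0.37), Yaf2 (0.34), Mga (-0.59) and L3mbtl3 (-0.56), an MBT gene. The Yaf2 call was lost in 13 of 24 fits that left out 1 library, and with no experiment term none of these 4 passed. Mga was at -1.09 in experiment 3 and -0.09 in experiment 4, a difference that did not pass (edgeR adjusted p = 0.255). In the labelled Upf1 knockout, 2 of 47 were higher, Bcor (0.45) and Fbrs (0.39), both of variant PRC1, and 1 lower, Mga (-0.66), beside 2.92% and 1.57% of all genes. None of these 3 passed with no experiment term. Mga was here at -1.08 in experiment 3 and -0.23 in experiment 4, a difference that did not pass (edgeR adjusted p = 0.500).

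In lysates, 14 of 47 list genes were higher and 8 lower in Ago2 knockout cells, beside 15.7% and 15.2% of all genes. Phf19 (0.42), a PRC2 cofactor, Sfmbt1 (0.33), an MBT gene, Pcgf5 (-0.38) and Cbx6 (-0.26) led, none past the threshold with no experiment term. In labelled Upf1 knockout lysates 16 were higher and 17 lower, near the 29.5% and 29.0% of all genes. They were led by Sfmbt2 (0.77), a relative of the Scm genes with MBT repeats and a SAM domain, Phf19 (0.72), Auts2 (-0.69) and Bcor (-0.57). In untagged lysates 6 were higher and 5 lower, beside 7.67% and 7.74% of all genes, led by Cbx6 (0.20), Pcgf2 (0.19), Bcor (-0.28) and Auts2 (-0.26), and these 4 calls too were lost with no experiment term.

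Recovery was set beside gene length. Length had not been used to choose the genes, but recovery had been used to choose Scml2 and Scmh1. Both are among the 10 genes correlated here, and no value was computed for the partners alone. Phc3 had the longest counted length of the 10, 17485 bases (percentile 99.0 of all genes), and the highest enrichment. Ring1 had the shortest, 3243 bases, and the lowest. Across the 10 genes Spearman's rho was 0.697 and Pearson's r with log10 length 0.791, given as a description over 10 genes that share all libraries. Across all 19993 genes the values were 0.290 and 0.231. Cbx2, at 4257 bases, had more recovery than the longer Cbx7, Phc2 and Scmh1, and Phc1, at 5297 bases, had almost none.

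**Figure D5:**
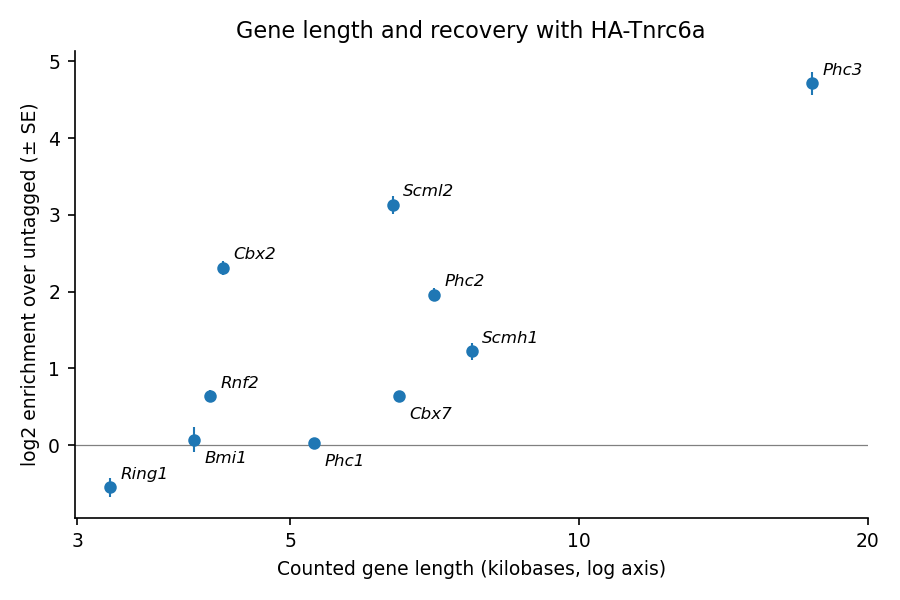
Log2 enrichment in HA-Tnrc6a over untagged cells (± SE) against counted gene length in kilobases (log axis), 1 point per gene. Phc3 stands highest and farthest right, Ring1 lowest and farthest left, and Cbx2 (2.31) lies above the longer Cbx7 (0.64).

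Of all genes, 10840 had an average log2 CPM of at least 3 over the 16 groups. Among these, the genes whose levels most resembled those of the Scm genes were sought by Pearson's r of group mean log2 CPM. For Scml2 they were Nbea (0.971), Trappc2 (0.949) and Tmem267 (0.949), and for Scmh1 they were Scamp5 (0.982), Plscr3 (0.971) and Hspb6 (0.967). The 16 points share libraries and the contrast of IP with input, and the best of many genes was taken, so these values are a description. Bmi1 lay below that level cutoff and could not appear. None of the other genes of the complex that were searched was among the 3 nearest to either Scm gene. With only 3 of 10840 genes listed for each, no conclusion can be drawn from that absence.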

How the data were processed

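The authors deposited 1 table of raw counts per gene and library (20171 genes, 48 libraries), with no normalization. A further 48 columns headed RPKM were not used, since each is the deposited count over 1 factor per library (within 9.91e-08 percent). Per the submitters' processing notes, bcl2fastq 2.20, STAR 2.7.3a and GRCm38 (mm10) were used. The header of the gene length column names the package QuasR, but the counter is not otherwise stated. Its strand setting is not given in the sources used here, so values of overlapping genes are uncertain. Positions are from RefSeq GRCm38.p6.

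Counts were fitted with edgeR 4.0.16 (R 4.3.3, limma 3.58.1) after TMM scaling and filterByExpr (minimum count 10). Each of 8 comparisons used only its own groups, with 1 coefficient per genotype, fraction and experiment, and contrasts were averaged over both experiments. The two-sided quasi-likelihood F-test was adjusted by Benjamini-Hochberg over all genes tested, and calls had an adjusted p under 0.05. Scml2 and Scmh1 were given no test in any comparison, also where one had been planned, since all use libraries on which their choice rested. SE is the log2 difference over the square root of F, and 95% intervals are 1.96 SE. The script was tested on simulated data. Library totals set the counting error, and PCR copies could not be told from separate RNA molecules.

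Columns 1 to 3 of each genotype and fraction were taken as experiment 3 and 4 to 6 as experiment 4, which is inferred. The genes and lists were chosen with earlier results of these data known. The text names all 10 genes, Tnrc6a, Ago2 and Upf1. From the 4 lists it names up to 2 genes per direction and comparison, those with the largest change past the threshold, the same sign in both experiments and average log2 CPM of at least 3, and for each Scm gene the 3 most correlated genes. L3mbtl4, Samd7, Samd13 (2 rows), Neurog2 and Col3a1 were not analysed here. Alternatives were RLE size factors, library totals, no count filter, no experiment term, a replicate block, DESeq2 1.42.0 and each library left out.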

Additional observations from a re-analysis of the deposited data

Results flagged for a closer look

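The effects below differed between experiments 3 and 4 by a test of the difference itself (edgeR quasi-likelihood interaction, Benjamini-Hochberg adjusted p under 0.05). Values are the log2 effect in experiment 4 less that in experiment 3, with n = 3 libraries per group, and adjusted p-values come from the edgeR fit over all genes.

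In Ago2 knockout inputs against HA-Tnrc6a inputs, Bmi1 differed by 0.93 (-0.88 in experiment 3 and 0.06 in experiment 4) and the list gene Cbx6 by -0.26 (-0.13 and -0.39), where 5.94% of all genes differed. In untagged inputs, Bmi1 differed by 0.75 (-0.62 and 0.13), where 3.40% of all genes did. In inputs labelled Upf1 knockout, Bmi1 differed by 0.95 (-0.20 and 0.75) and Phc1 by -0.14 (-0.12 and -0.26), where 11.6% of all genes did. The 3 comparisons share the HA-Tnrc6a inputs.

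In the enrichment of Ago2 knockout over untagged cells, Cbx2 differed by -0.58 (2.62 and 2.04), Cbx7 by -0.62 (1.31 and 0.69) and the list gene Aebp2 by -0.59 (2.62 and 2.03), where 6.15% of all genes differed.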

How the results depend on the processing

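Of 570 values of tested named genes under alternatives other than leaving out a library, 522 kept their direction and side of the threshold. The 96 values of Scml2 and Scmh1, which have no test, kept their direction, and 6 moved by more than the spread between libraries. These were the enrichments with library totals, at 2.97 and 1.06 in HA-Tnrc6a, 2.82 and 0.69 in the Ago2 knockout, and 3.05 and 1.23 in the labelled Upf1 knockout. With no experiment term, 765 genes were called for recovery in the Ago2 knockout and 26 in the labelled Upf1 knockout (4267 and 896 with it). In the inputs of the Ago2 knockout, labelled Upf1 knockout and untagged cells, 983, 5859 and 148 were called (6065, 11388 and 2990 with it). The partners called were then 0 of 8 for recovery in the Ago2 knockout (4 at an unadjusted p under 0.05), and 1, 4 and 0 in those inputs (in untagged inputs 1 at an unadjusted p under 0.05). In untagged inputs 1 to 2 partners passed when each library was left out, 2 of them without untagged replicate 1 or 2 of experiment 3. That model pools the experiments into the spread. DESeq2 called 1 of 8 partners for recovery in the labelled Upf1 knockout (Phc1 at 0.14, DESeq2 adjusted p = 0.00740). Among calls in that comparison, the share higher was 65.1% with TMM, 52.8% with RLE, 47.5% with no filter, 22.4% with library totals, 15.4% with no experiment term and 56.5% with DESeq2, and the cause was not tested.

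Signs that turned belonged to values that did not pass the threshold or had no test, except Phc1 in the labelled Upf1 knockout over untagged cells. With library totals, enrichment in HA-Tnrc6a was -0.13 for Phc1 and -0.09 for Bmi1, and in the labelled Upf1 knockout -0.06 and -0.11, as the medians of all genes moved from -0.10 to -0.25 and from -0.06 to -0.32 (Ago2 knockout -0.07 to -0.22). The share of calls that were higher fell from 50.0% to 36.4% in the labelled Upf1 knockout. For recovery in the labelled Upf1 knockout, Cbx2 was -0.0022 with RLE, -0.07 with library totals, -0.01 with no filter, -0.05 with no experiment term and -0.0022 with DESeq2. Library totals and no experiment term gave -0.05 and -0.02 for Phc2, -0.02 and -0.01 for Phc3, and -0.02 and -0.03 for Bmi1, and library totals -0.01 for Cbx7 and -0.02 for Rnf2.

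Leaving out each library in turn gave these ranges where a sign turned. For recovery in the labelled Upf1 knockout they were -0.03 to 0.10 (Bmi1), -0.09 to 0.04 (Cbx2), -0.01 to 0.10 (Cbx7), -0.08 to 0.07 (Phc2), -0.01 to 0.12 (Phc3) and -0.0028 to 0.09 (Rnf2), with 591 to 957 genes called. The lowest counts there came without HA-Tnrc6a input replicates 2 (591) and 3 (594) of experiment 3 and 2 (596) and 3 (592) of experiment 4. Bmi1 ran from -0.02 to 0.13 for enrichment in HA-Tnrc6a and from -0.04 to 0.21 in the labelled Upf1 knockout, and Cbx2 from -0.02 to 0.08 for recovery in the Ago2 knockout. In inputs, Phc3 ran from -0.06 to 0.02 and Rnf2 from -0.03 to 0.02 in the Ago2 knockout, Cbx2 from -0.01 to 0.05 in the labelled Upf1 knockout, and Scmh1 from -0.09 to 0.03 in untagged cells.

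The labels do not say that a replicate number marks a shared lysate or day, so the block was kept out of the values reported. Deviations from the group means correlated by 0.104 on average between an IP and its own-numbered input and by -0.0491 between other numbers, and over 0.1 in 10 of 24 pairs. Of 24 comparisons, 17 were best with their own number. Between inputs of different genotypes the means were 0.0689 and -0.0347, with 13 of 36 over 0.1 and 23 of 36 best with their own number. This is a hint from the data that numbers may be shared. In both sets the value for other numbers follows largely from that for the own number, since deviations within a group sum to 0. With a replicate block the genes called were 12460, 13028 and 12839 for the enrichments, 4300 and 946 for the recoveries, and 6494, 11539 and 3350 for the inputs, and no call of the 8 partners changed. The low counts of Bmi1 and Ring1 limit their precision.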
